A study of Mus musculus with 8 samples.

Results

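The transcription factor p53, 5 further genes known as its targets and 4 inhibitors of cyclin-dependent kinases (CDKs) were followed in RNA from mouse distal convoluted tubules of control animals and of animals labelled as calcineurin knockouts. The 10 genes were taken by name, with earlier results of these data known. They were Trp53, its target and negative regulator Mdm2, the targets Ccng1, Bax, Gadd45a and Btg2, and 4 CDK inhibitors. The inhibitors were Cdkn1a, Cdkn1b, Cdkn1c and Cdkn2c, of which Cdkn1a is itself a p53 target. The full set makes up 10 of 42416 gene identifiers in the count files and 10 of the 14268 genes with enough counts to be tested. None of the 10 passed the test between genotypes, and 2.21% of all genes tested did. At that share 0 of 10 is the usual outcome, so the count is not particular to these genes. All 12 tested marker genes of dividing cells, a list also chosen with results known, were called higher in the knockout libraries. The number called was 2 to 12 when single libraries were left out, and 1 with a block for the leading digits of the number in the title.

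The study compared 4 Control libraries with 4 libraries labelled KO, each made from 1000 fragments of the tubule taken with a Biosorter, a flow sorter for large particles. Control animals were wild type (wt) at the floxed locus Cnb1fl, and KO animals carried it as Tg/Tg. Cnb1 is another name of Ppp3r1, which encodes calcineurin B, the regulatory subunit of a calcium-dependent phosphatase. Both groups carried NCCcre Tg/+, a Cre recombinase whose name refers to NCC, the NaCl cotransporter made in these cells, together with the reporter TOMATO Tg/+, and both received tamoxifen by mouth (a daily 2 mg per animal on 5 days), 3 weeks before the experiments. Age and sex are not in the labels used here, nor is the promoter behind the Cre. Each label carries a number of its own, but nothing states that the libraries came from separate animals, so the p-values measure the spread between these libraries. Replicate numbers only name the libraries, and values listed for a group run from replicate 1 to replicate 4.

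In textbook terms, p53 is kept low by Mdm2, an E3 ubiquitin ligase that marks it for degradation, and it accumulates after DNA damage or other stress. It then switches on genes that halt the cell cycle, repair DNA or trigger apoptosis, and Mdm2 itself, which closes a feedback loop. CDKs drive cells through the cycle once they are bound by a cyclin. The proteins p21 (Cdkn1a), p27 (Cdkn1b) and p57 (Cdkn1c) bind cyclin-CDK complexes, and p18 (Cdkn2c) binds CDK4 and CDK6. Cells of the adult distal convoluted tubule divide rarely, but the segment can grow when its transport load changes. Much of the control of p53 and p27 acts on the proteins, which RNA counts do not measure.

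Sequence at the start sites is shown first for the gene whose promoter carries the best known p53 site. RefSeq start-site windows on GRCm38.p6, running from 250 bases before to 50 bases after each start, were found for 9 of the 10 genes (11 windows). They were searched on both strands for the p53 consensus element, which is a pair of adjoining 10-base sites, here with no spacer and at most 1 mismatch outside the cores. This form of the search was set after the windows had been seen. A match lay in 1 of the 11 windows, that of the upstream start of Cdkn1a, and in 0.0548% of all 32851 windows. That window is printed because Cdkn1a is the standard readout of p53 activity, with the element in capitals (chr17:29090729-29091028, plus strand, element at chr17:29090928-29090947, 51 to 32 bases before the start).
Cdkn1a upstream start: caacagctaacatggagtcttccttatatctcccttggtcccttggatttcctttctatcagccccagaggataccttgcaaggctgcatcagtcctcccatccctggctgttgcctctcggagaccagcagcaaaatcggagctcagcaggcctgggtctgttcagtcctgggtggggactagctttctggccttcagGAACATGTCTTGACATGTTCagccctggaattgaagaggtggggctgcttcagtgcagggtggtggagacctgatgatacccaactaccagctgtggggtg

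A second known element is shown for the dividing cell markers, the genes that did differ between the groups. The cell cycle genes homology region, TTTGAA on either strand, is bound by repressive and activating complexes that p53 and p21 act on indirectly. It was found in 17.9% of all 32851 windows, in 1 of the 11 windows of the 10 genes (that of Bax) and in 7 of the 10 windows available for dividing cell markers. Stretches from 4 of those marker windows are printed, in the direction of the gene, with 1 match of the motif in capitals. The matches are descriptions of sequence only.
Mki67 (chr7:135716442-135716507, minus strand): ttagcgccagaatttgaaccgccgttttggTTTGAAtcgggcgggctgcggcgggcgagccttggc
Cdk1 (chr10:69352892-69352957, minus strand): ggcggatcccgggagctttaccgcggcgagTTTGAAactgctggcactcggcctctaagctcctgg
Ccnb2 (chr9:70421515-70421580, minus strand): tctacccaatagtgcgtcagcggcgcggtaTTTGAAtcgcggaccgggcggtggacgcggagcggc
Top2a (chr11:99024177-99024242, minus strand, motif on the opposite strand): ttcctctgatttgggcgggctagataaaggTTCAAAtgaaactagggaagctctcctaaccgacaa

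Total counts ran from 18161442 to 45150953 per library, 18263 to 19470 genes had at least 1 count, and transcripts of the mitochondrial genome took 13.4% to 19.1%. The defining marker of the segment, the cotransporter gene Slc12a3, averaged 6783 ± 1045 CPM in Control, against 5120 ± 1988 CPM in KO (SD, n = 4). CPM are counts scaled to a common library total, after TMM scaling between libraries. The targeted gene Ppp3r1 stood at 108, 97.4, 99.8 and 84.4 CPM in the Control libraries, against 80.7, 74.0, 97.7 and 92.5 CPM in the KO libraries (edgeR adjusted p = 0.548). Counts over the whole gene did not separate the groups, and KO stands for the deposited genotype label. Gene-level counts do not show whether floxed exons were lost.

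Across all genes, edgeR's quasi-likelihood test (QL) with Benjamini-Hochberg adjustment called 316 of 14268 genes (2.21%) at an adjusted p under 0.05. Of these, 191 (1.34%) were higher and 125 (0.876%) lower in KO. With plain library totals as the scaling, 242 of 332 called genes were higher, while the median log2 fold change of all tested genes moved from -0.02 to 0.13. Of the 10 genes, 0 were called by edgeR QL. The count was also 0 with DESeq2, which called 5.25% of all genes, and 0 with limma-voom, which called 3.64%. At an unadjusted p under 0.05, 3 of the 10 genes stood higher in KO (Mdm2, Gadd45a and Cdkn2c) and 0 lower, against 13.9% of all genes in either direction. The libraries of the 2 groups overlapped for all 10 genes, and 9.44% of all genes had no overlap. At such shares of all genes, 0 of 10 is an ordinary outcome, for the calls as for the overlap. The median log2 fold change of the 10 genes was 0.24, beside -0.02 for all tested genes, and with library totals 0.39 beside 0.13. The unadjusted 95% intervals of Mdm2, Gadd45a and Cdkn2c lay above 0 and those of the other 7 genes included it, and none of the 10 passed after adjustment over all genes tested.

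**Figure D1:**
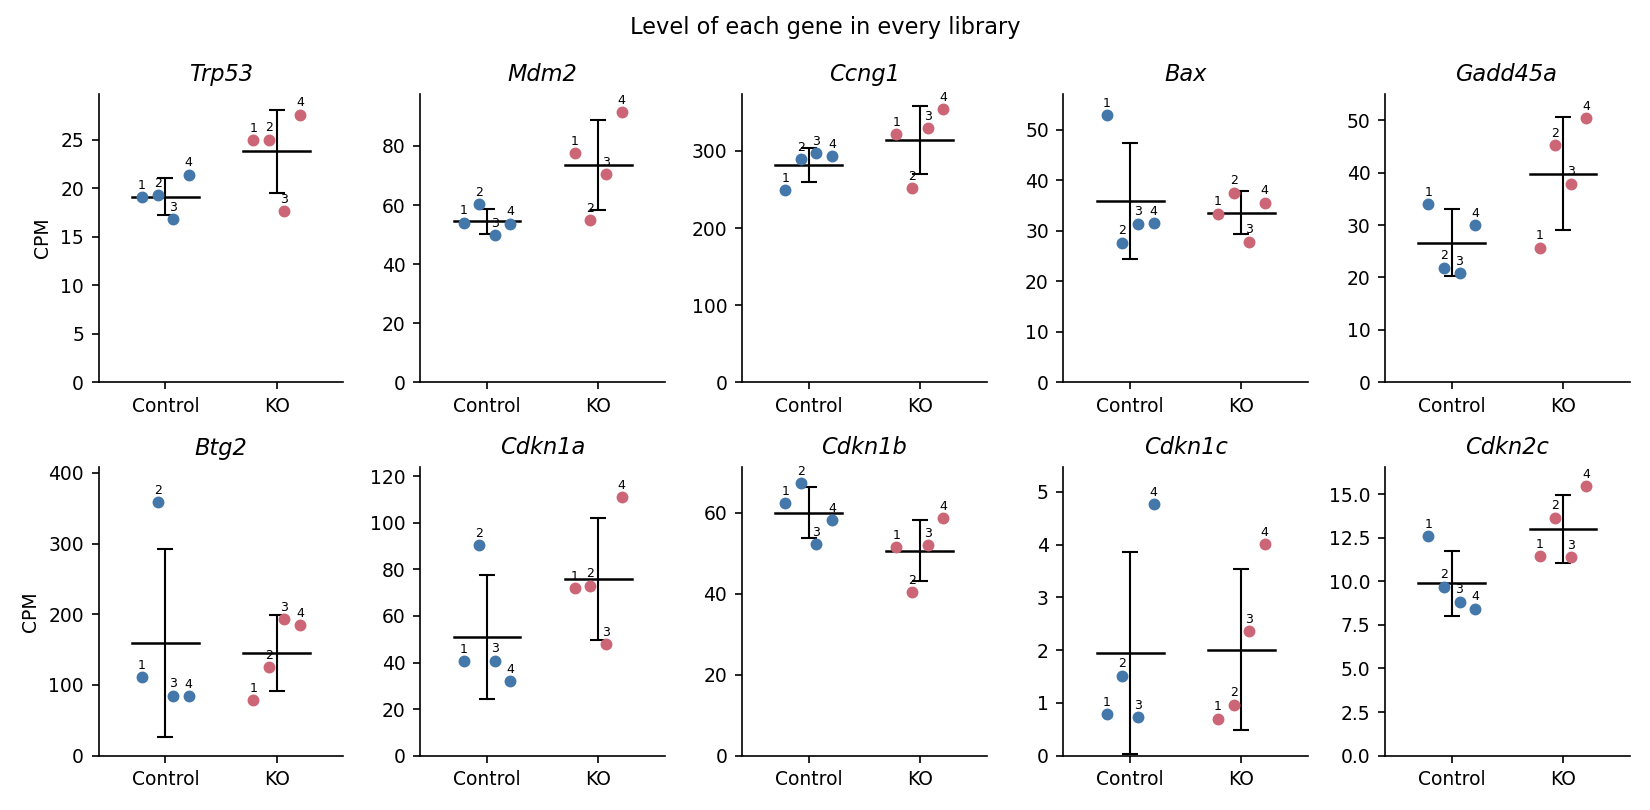
Level of each of the 10 genes in CPM (linear axes from 0), with 1 point per library, numbered by replicate, the mean as a horizontal bar and the SD as whiskers (n = 4 per group). Control and KO points overlap in all 10 panels, and Control replicate 2 lies far above the other Control libraries for Btg2 (358.5 CPM) and Cdkn1a (90.3 CPM).

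Levels can be compared between genes only per length of transcript, as CPM per kilobase of exon. On that scale in Control, Ccng1 had the highest mean of the 10 (80.3 ± 6.38, SD, n = 4), followed by Btg2 (58.2 ± 48.5), Bax (22.7 ± 7.29), Gadd45a (15.1 ± 3.62), Cdkn1a (14.3 ± 7.49) and Cdkn1b (13.2 ± 1.39). Mdm2 (10.7 ± 0.847), Trp53 (4.74 ± 0.462), Cdkn2c (3.68 ± 0.698) and Cdkn1c (0.955 ± 0.937) were lower. Neighbours in this order overlapped between Control libraries, except that all 4 values of Mdm2 lay above those of Trp53, and all 4 of Cdkn2c above those of Cdkn1c. Of the 4 CDK inhibitors, p21 and p27 transcripts were thus the more abundant and p57 was close to the limit of the test.

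Trp53 itself (ENSMUSG00000059552, chromosome 11, 69580359 to 69591873, plus strand, GRCm38) stood at 19.1, 19.3, 16.8 and 21.4 CPM in the Control libraries, against 25.0, 25.0, 17.7 and 27.6 CPM in the KO libraries. KO replicates 1, 2 and 4 lay above every Control library and KO replicate 3 lay among them. The log2 fold change, KO over Control, was 0.31 ± 0.15 (SE, 4 libraries per group), with a 95% interval from -0.02 to 0.65 and an edgeR QL adjusted p of 0.389. The exact two-sided permutation test over the 70 assignments of libraries, which cannot go below 0.029 here, gave p = 0.114.

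Mdm2, the ligase that restrains p53 and a sensitive readout of its activity, had the smallest p of the 10 and ranked 1063 of 14268. Its gene (ENSMUSG00000020184) lies on chromosome 10, 117688875 to 117710758, minus strand. Levels were 54.0, 60.2, 49.8 and 53.7 CPM in the Control libraries, a narrow band. The KO libraries stood at 77.5, 54.9, 70.55 and 91.5 CPM, so that KO replicate 2 alone fell within the Control range. The fold was 1.35, with a 95% interval from 1.07 to 1.71 (log2 0.43 ± 0.15, SE, 4 libraries per group, edgeR QL p = 0.0171 unadjusted and 0.230 adjusted, exact permutation p = 0.0571). The log2 fold change kept its direction in all 18 alternative settings, between 0.31 and 0.59, and passed in none.

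By the rule on likeness, the genes whose profiles over the 8 libraries were nearest to that of Mdm2 were Sim1, Lin54 and Arl13b. The root mean square differences of their centred log2(CPM + 1) values from those of Mdm2 were 0.0883, 0.0975 and 0.101, where the spread of Mdm2 itself was 0.284 and 8945 genes were compared. Their log2 fold changes were 0.50, 0.32 and 0.48, and none passed (edgeR QL adjusted p = 0.198, 0.361 and 0.184).

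Ccng1, cyclin G1, a p53 target that feeds back on Mdm2, had the highest mean level of the 10 genes (ENSMUSG00000020326, chromosome 11, 40748552 to 40755311, minus strand). It stood at 249, 289, 297 and 293 CPM in the Control libraries, against 322, 252, 329 and 354 CPM in the KO libraries. Control replicate 1 and KO replicate 2 were the low libraries. Its fold change on the log2 scale was 0.16 ± 0.13 (SE, 4 libraries per group), with a 95% interval from -0.14 to 0.45 (edgeR QL adjusted p = 0.610, exact permutation p = 0.286). Its interval, with that of Cdkn1b, was the narrowest of the 10, so a change beyond 1.37-fold upward or 0.907-fold downward lies outside it.

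Gadd45a, a stress sensor of the growth arrest and DNA damage family that acts in repair and at the G2/M boundary, had the largest log2 fold change of the 10 (ENSMUSG00000036390, chromosome 6, 67035096 to 67037457, minus strand). Levels were 34.0, 21.9, 20.8 and 29.9 CPM in the Control libraries, against 25.7, 45.3, 37.9 and 50.4 CPM in the KO libraries. KO replicates 2 to 4 lay above every Control library and KO replicate 1 lay within the Control range. The estimated log2 fold change came to 0.58 ± 0.23 (SE, 4 libraries per group), a fold of 1.49 with a 95% interval from 1.05 to 2.12 (edgeR QL p = 0.0293 unadjusted and 0.295 adjusted, exact permutation p = 0.114). With limma-voom the adjusted p was 0.0719, the lowest of any of the 10 genes in any setting. Exons of E230016M11Rik overlap Gadd45a on the opposite strand, and that gene held 3.97% as many counts.

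Bax, the pore-forming effector of mitochondrial apoptosis (ENSMUSG00000003873, chromosome 7, 45461697 to 45466898, minus strand), stood at 52.9, 27.6, 31.35 and 31.5 CPM in the Control libraries. The KO libraries held 33.4, 37.5, 27.8 and 35.5 CPM. Control replicate 1 was the highest of the 8 libraries, and the others shared 1 range. KO over Control, the log2 fold change was -0.09 ± 0.20 (SE, 4 libraries per group), with a 95% interval from -0.54 to 0.36 (edgeR QL adjusted p = 0.849), and it was 0.15 without Control replicate 1 and 0.07 with library totals. Gm45808, a gene on the same strand, shares 192 bases of exon with Bax (12.2% of its exons) and held 32.5% as many counts, and how reads of the shared bases were counted is not given in the sources used here.

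Btg2, an antiproliferative p53 target that is also an immediate early gene, varied most among the abundant members (ENSMUSG00000020423, chromosome 1, 134075170 to 134079120, minus strand). It stood at 111, 358.5, 85.0 and 84.2 CPM in the Control libraries, against 78.2, 125, 193 and 185 CPM in the KO libraries. Control replicate 2 was higher than every other library. On the log2 scale the difference was -0.14 ± 0.48 (SE, 4 libraries per group), with a 95% interval from -1.21 to 0.93 (edgeR QL adjusted p = 0.911), and it became 0.64 without Control replicate 2 (adjusted p = 0.362).

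Cdkn1a, which encodes p21 and brings about much of the arrest that follows p53 activation, stood at 40.6, 90.3, 40.8 and 31.9 CPM in the Control libraries (ENSMUSG00000023067, chromosome 17, 29090976 to 29100727, plus strand). The KO libraries stood at 71.9, 73.0, 48.0 and 111 CPM. All 4 KO libraries lay above Control replicates 1, 3 and 4, and Control replicate 2 lay above 3 of the 4 KO libraries. Its fold change on the log2 scale was 0.57 ± 0.34 (SE, 4 libraries per group), with a 95% interval from -0.18 to 1.33 (edgeR QL adjusted p = 0.472, exact permutation p = 0.229). It was 1.01 without Control replicate 2 (adjusted p = 0.109) and 0.33 without KO replicate 4 (adjusted p = 0.798), and it passed in neither case.

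Control replicate 2 was also the library with the highest sum of 17 immediate early genes, which respond within minutes to stimulation or handling. That sum was 618, 2281, 403 and 433 CPM in the Control libraries, against 789, 704, 1569 and 1419 CPM in the KO libraries. Fosb, a subunit of the AP-1 transcription factor, was higher in KO (6.07 CPM ± 1.69 against 20.7 ± 6.46, SD, n = 4 each, log2 fold change 1.76 ± 0.27, SE, edgeR QL adjusted p = 0.0142). Ier3, an early response gene linked to cell survival, was lower (199 CPM ± 148 against 44.3 ± 16.5, log2 fold change -2.17 ± 0.47, adjusted p = 0.0490), a call kept in 6 of 18 alternatives and lost with library totals. Fosb lost its call without Control replicate 4, and Ier3 without any single library other than KO replicate 3. The remaining 15 were not called, and the list median was 0.72. At an unadjusted p under 0.05, 6 of the 17 stood higher and 2 lower, and 4 were called higher without Control replicate 2. The part of the immediate early response in the values of Btg2 and Cdkn1a was not tested.

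**Figure D2:**
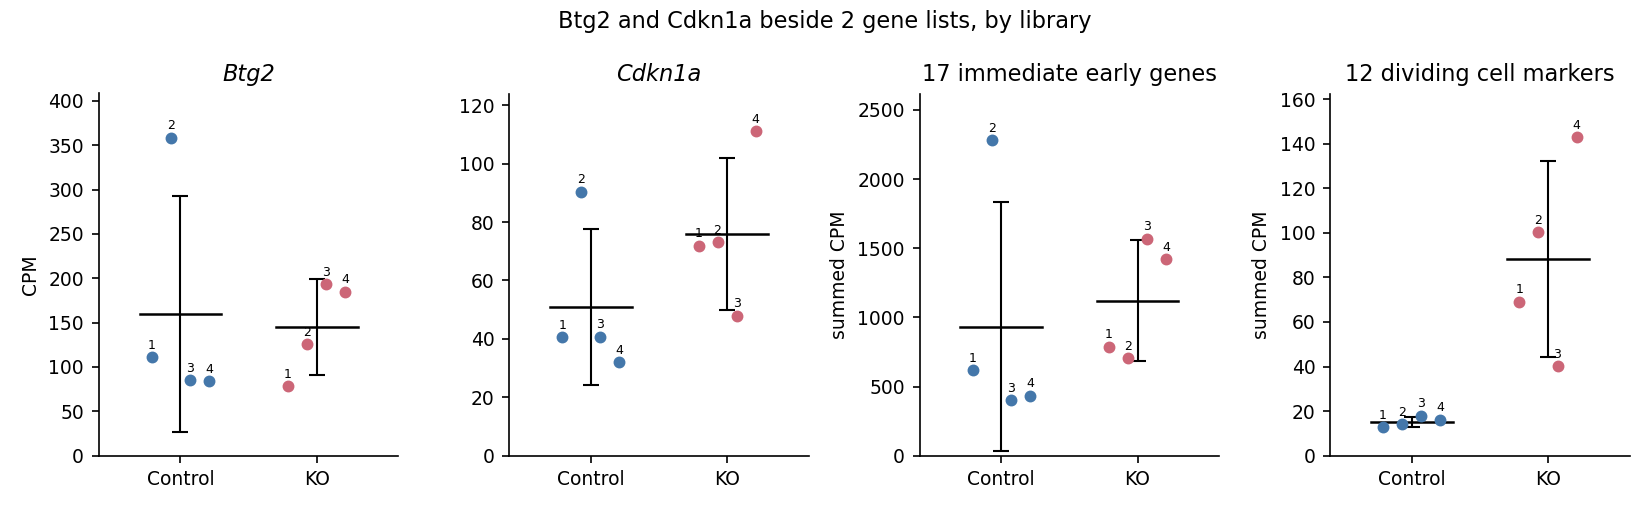
Levels of Btg2 and Cdkn1a in CPM beside the summed CPM of 17 immediate early genes and of 12 dividing cell markers (linear axes from 0), with 1 point per library, numbered by replicate, and the mean and SD of each group (n = 4). Control replicate 2 is the highest Control library for Btg2, Cdkn1a and the immediate early genes but not for the dividing cell markers, where every KO library (40.1 to 143 CPM) lies above every Control library (12.8 to 18 CPM).

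Cdkn1b, which encodes p27, an inhibitor that holds resting cells out of the cycle, stood at 62.4, 67.3, 52.3 and 58.2 CPM in the Control libraries, against 51.5, 40.4, 51.9 and 58.7 CPM in the KO libraries (ENSMUSG00000003031, chromosome 6, 134920401 to 134925513, plus strand). KO replicates 1 to 3 lay below every Control library and KO replicate 4 lay among them. The estimated log2 fold change came to -0.25 ± 0.14 (SE, 4 libraries per group), with a 95% interval from -0.55 to 0.05 (edgeR QL adjusted p = 0.441, exact permutation p = 0.114). It was negative in all 18 alternatives, from -0.32 to -0.09.

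Cdkn2c, which encodes p18 of the INK4 family, stood at 12.6, 9.70, 8.83 and 8.42 CPM in the Control libraries, against 11.45, 13.65, 11.4 and 15.4 CPM in the KO libraries (ENSMUSG00000028551, chromosome 4, 109660876 to 109667189, minus strand). KO libraries lay above Control replicates 2 to 4, and Control replicate 1 lay within the KO range. KO over Control, the log2 fold change was 0.39 ± 0.17 (SE, 4 libraries per group), with a 95% interval from 0.00 to 0.78 (edgeR QL p = 0.0492 unadjusted and 0.357 adjusted, exact permutation p = 0.0857).

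Cdkn1c, which encodes p57 and is expressed from the maternal allele, was the least abundant of the 10 (ENSMUSG00000037664, chromosome 7, 143458339 to 143461050, minus strand). It stood at 0.780, 1.52, 0.732 and 4.76 CPM in the Control libraries, against 0.699, 0.964, 2.36 and 4.01 CPM in the KO libraries. Libraries 4 of both groups were the high ones, and the numbers pair nothing. On the log2 scale the difference was 0.03 ± 0.70 (SE, 4 libraries per group), and its 95% interval ran from -1.54 to 1.59, or from 0.343-fold to 3.02-fold (edgeR QL adjusted p = 0.990).

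**Figure D3:**
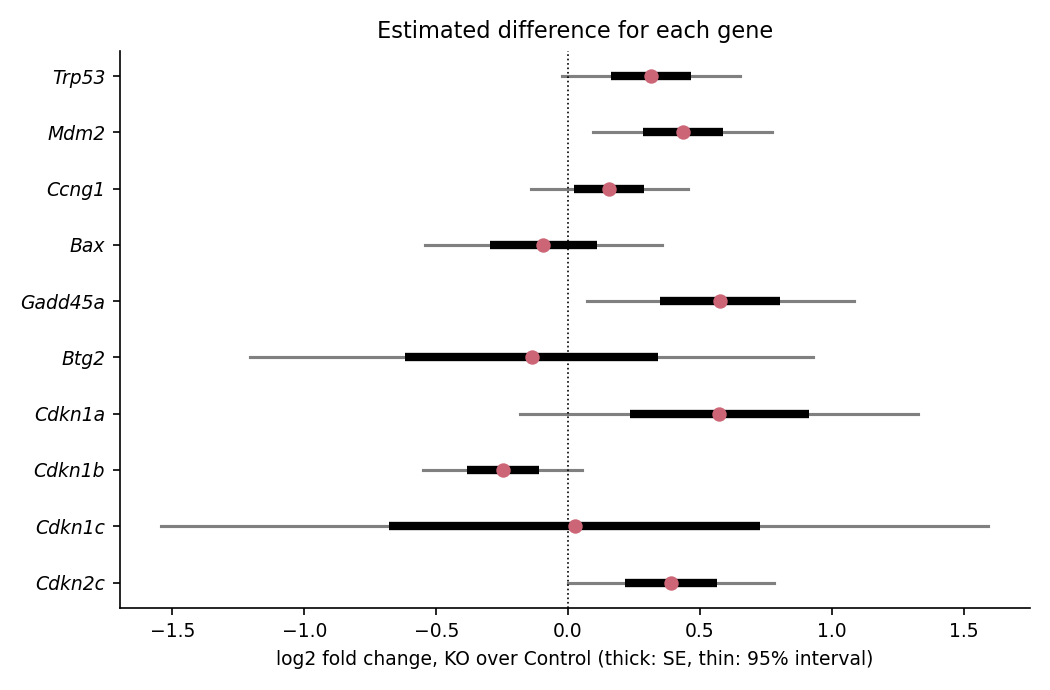
Log2 fold change of each of the 10 genes, KO over Control, from the edgeR QL fit on all 8 libraries. Points are estimates, thick bars 1 SE and thin bars 95% intervals, and the dotted line marks no difference. The intervals of Mdm2, Gadd45a and Cdkn2c lie above 0 before adjustment, and those of Cdkn1c and Btg2 are the widest.

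KO replicate 4 held the highest level of 6 of the 10 genes (Trp53, Mdm2, Cdkn1a, Cdkn2c, Ccng1 and Gadd45a). It also had the fewest counts (18161442), the lowest mitochondrial share (13.4%) and the highest sum of dividing cell markers (143 CPM). Without it, the log2 fold changes were 0.24 for Trp53, 0.31 for Mdm2, 0.33 for Cdkn1a, 0.30 for Cdkn2c, 0.09 for Ccng1 and 0.45 for Gadd45a. All were smaller than with it, which follows from leaving out the highest KO value of each gene. The part of depth or RNA composition in these values was not tested.

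Markers of dividing cells moved together. All 12 of the list (Mki67, Top2a, Ccna2, Aurka, Cdk1, Ccnb2, Ube2c, Bub1, Ccnb1, Aurkb, Plk1 and Birc5) were tested and all 12 were called higher in KO, with log2 fold changes from 2.22 to 2.89. Mki67, which encodes the Ki-67 antigen of cycling cells, stood at 1.95, 3.30, 3.815 and 3.81 CPM in the Control libraries, against 14.9, 22.3, 10.8 and 30.4 CPM in the KO libraries. Every KO library exceeded every Control library. Its fold change on the log2 scale was 2.60 ± 0.34 (SE, 4 libraries per group, edgeR QL adjusted p = 0.00988), and Mki67 passed in all 18 alternatives. Top2a, the DNA topoisomerase of S and G2 phase, rose by 2.54 ± 0.35 (adjusted p = 0.0102), Ccna2, cyclin A2, by 2.62 ± 0.40 (adjusted p = 0.0142) and the mitotic kinase Aurka by 2.33 ± 0.36 (adjusted p = 0.0152). The levels are low, and in bulk RNA the number of cells of a type and the RNA per cell cannot be told apart. The number called fell to 2 without Control replicate 4 or without KO replicate 2, to 4 without Control replicate 3 and to 5 without Control replicate 1 or 2, and it was 6 without KO replicate 4 and 7 without KO replicate 1. Some Control and KO libraries share the leading digits of the title number, but Control replicate 4 had digits of its own. A block for these digits therefore took that library out of the comparison between genotypes. With the block, 1 of the 12 was called, Mki67, and the log2 fold changes ran from 2.18 to 2.72. Log2 fold changes nevertheless stayed between 1.83 and 3.26 in every setting run.

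The summed leukocyte markers stood higher in every KO library than in any Control library. The 8 markers added up to 10.2 to 13.2 CPM in Control and to 77.0, 26.2, 20.6 and 48.0 CPM in KO replicates 1 to 4. Most of that sum came on average from 1 gene, Csf1r, a macrophage receptor. It stood at 7.12 ± 0.789 CPM in Control, against 32.7 ± 28.0 CPM in KO (SD, n = 4, edgeR QL adjusted p = 0.0640). Of the 5 testable markers, 4 had a positive and 1 a negative log2 fold change, with a median of 1.56, and the groups did not overlap for 2. Among these 5, edgeR QL called 0 and DESeq2 called 3, and 3 reached an unadjusted p under 0.05. Adgre1, C1qa and Cx3cr1 could not be tested and stood below 0.4 CPM on average in both groups. Over the KO libraries the leukocyte sum was highest in replicate 1 and the dividing cell sum in replicate 4, and both were lowest in replicate 3. The part of leukocytes in the result was not tested. Markers of the distal convoluted tubule were lower in KO for 5 of 6 genes (Pvalb, Klhl3, Calb1, Trpm6 and Wnk4), with Slc12a3 not called (adjusted p = 0.490). The count fell to 1 without Control replicate 4 or KO replicate 2 and was 4 without any other single library. All 6 markers of the connecting tubule and principal cell stood lower at an unadjusted p under 0.05, with a median log2 fold change of -0.98, and edgeR QL called 0 of them, DESeq2 2 and limma-voom 2. The part of these cells in the results was not tested. Of the remaining cell type lists tested by edgeR QL, only the thick ascending limb list held a called gene, Umod, which was lower (adjusted p = 0.0410). Umod lost its call without any single library other than Control replicate 2 or KO replicate 3. All 5 markers of that list had negative log2 fold changes, and their sum was 8903 to 13910 CPM in Control and 4316 to 7092 CPM in KO. All tested markers of proximal tubule (8), endothelium (5), fibroblast and mural cell (3) and podocyte (3) were also negative. Intercalated cell markers were mixed (2 positive, 3 negative). The part of these cell types was not tested either.

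The wider p53 target list, 43 genes of which 41 could be tested, held 0 calls in either direction by edgeR QL. At an unadjusted p under 0.05, 7 stood higher and 3 lower, and DESeq2 called 1 higher and 3 lower. The median log2 fold change was 0.20, with 27 positive and 14 negative values. Sesn1, a stress-induced inhibitor of mTORC1 signalling, had the smallest p, with 44.3, 38.5, 34.0 and 40.05 CPM in the Control libraries, against 28.9, 28.15, 29.7 and 28.4 CPM in the KO libraries. All 4 KO libraries lay below the Control range (log2 fold change -0.45 ± 0.11, SE, edgeR QL adjusted p = 0.0744, DESeq2 adjusted p = 0.00411). Gtse1, a microtubule-binding protein of G2 and S phase that opposes p53, stood at 1.04 ± 0.163 CPM in Control, against 2.98 ± 1.67 CPM in KO (SD, n = 4, log2 fold change 1.51 ± 0.40, SE, edgeR QL adjusted p = 0.101). The apoptotic targets Bbc3 (PUMA), Pmaip1 (NOXA) and Fas showed differences on the log2 scale of 0.21 ± 0.68, -0.81 ± 0.69 and 0.35 ± 0.34 (SE), and the p53-induced genes Zmat3 and Phlda3 had 0.02 ± 0.11 and 0.23 ± 0.24. These 5 were chosen as standard targets after their values were seen.

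The next list held genes that act on p53. Of 20 regulators and relatives, 19 were tested and 0 were called by edgeR QL, 3 stood higher and 0 lower at an unadjusted p under 0.05, and the median was 0.22. The checkpoint kinases had the smallest p. Chek2, which phosphorylates p53 after double-strand breaks, stood at 2.50 CPM ± 0.721 in Control and 5.35 ± 1.32 in KO (log2 fold change 1.09 ± 0.29, adjusted p = 0.104), and Chek1, the kinase of the replication checkpoint, at 0.884 ± 0.397 and 2.19 ± 0.668 (1.31 ± 0.38, adjusted p = 0.134). For Chek2 and Chek1, every KO library lay above every Control library. DESeq2 called these 2 genes of the list higher (adjusted p = 0.0113 and 0.0269), and limma-voom called 1, Chek1 (adjusted p = 0.0301).

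Among the other CDK inhibitors and pocket proteins, 6 of 7 genes were tested and 1 was called. Cdkn3, a phosphatase that acts on CDK2 and CDK1 and is itself transcribed in dividing cells, stood at 0.0488, 0.144, 0.366 and 0.301 CPM in the Control libraries, against 1.05, 2.699, 0.630 and 3.21 CPM in the KO libraries. The groups did not overlap (log2 fold change 3.15 ± 0.67, SE, 4 libraries per group, edgeR QL adjusted p = 0.0470), and the call was kept in 7 of 17 alternatives. It was lost without any single library other than KO replicate 3. Cdkn2a, the locus of p16 and p19ARF that rises in senescent cells, had 0 counts in all 8 libraries. Cdkn2b (p15) and Cdkn2d (p19) had log2 fold changes of 2.08 ± 0.81 and 0.25 ± 0.24 and were not called (adjusted p = 0.285 and 0.646). The pocket protein genes Rb1, Rbl1 and Rbl2, whose products repress E2F targets, had 0.10 ± 0.14, 0.58 ± 0.21 and -0.27 ± 0.11 (adjusted p = 0.759, 0.236 and 0.315).

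The cyclin, CDK and E2F list held the partners and targets of the CDK inhibitors. Of its 29 genes, 26 were tested, 6 were called higher and 0 lower, and the median was 0.23. Cdc25c, the phosphatase that activates CDK1, rose by 3.06 ± 0.46 on the log2 scale (edgeR QL adjusted p = 0.0142), from 0.112 CPM ± 0.0232 to 0.962 ± 0.384 (SD, n = 4 each). Cdk1, the mitotic kinase, rose by 2.49 ± 0.39 (adjusted p = 0.0155), from 1.56 CPM ± 0.304 to 8.79 ± 4.31. Ccnb2, cyclin B2, rose by 2.42 ± 0.42 (adjusted p = 0.0208), and Ccna2 was given with the dividing cell markers. The remaining calls were Ccnb1 and E2f1. The abundant G1 genes had smaller values that were not called, with log2 fold changes of 0.04 ± 0.17 for Ccnd1, 0.11 ± 0.11 for Cdk4 and 0.16 ± 0.13 for Cdk2, which are among the cyclins and kinases that CDK inhibitors bind. Ccna2, Ccnb1, Ccnb2 and Cdk1 also stand in the list of dividing cell markers. No gene of the cyclin, CDK and E2F list was called without KO replicate 2, without Control replicate 4 or with the title number block. The same held with the filter of at least 5 CPM in 4 libraries, which left 16 of its genes. Cdk1 lost its call without Control replicate 3 as well, and Ccnb2 without Control replicate 1, 2 or 3.

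The list of p27 turnover genes and FOXO factors gave 1 call among 12 tested, and the called gene is described here by its action on p21. Dtl, the substrate receptor of the CRL4 ligase that degrades p21 in S phase, stood at 0.511 ± 0.169 CPM in Control, against 2.47 ± 0.908 CPM in KO (SD, n = 4, log2 fold change 2.29 ± 0.41, SE, edgeR QL adjusted p = 0.0228), and 11 of 17 alternatives kept the call. It was lost without Control replicate 2, 3 or 4 and without KO replicate 2 or 4. Skp2, the receptor that targets p27, had 0.39 ± 0.24 (adjusted p = 0.491). Foxo1 and Foxo3, which activate Cdkn1b transcription, had -0.07 ± 0.16 and -0.17 ± 0.12.

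Relatives of Gadd45a, Btg2 and Ccng1 held 1 call among 9 tested, and it was lower. Btg1, an antiproliferative gene abundant in resting cells, stood at 131, 88.95, 63.65 and 92.3 CPM in the Control libraries, against 47.65, 46.0, 42.5 and 58.9 CPM in the KO libraries. Every KO library lay below every Control library (log2 fold change -0.95 ± 0.20, SE, 4 libraries per group, edgeR QL adjusted p = 0.0475). The call was kept in 6 of 18 alternatives, with log2 fold changes from -1.09 to -0.68, and was lost with library totals and without any single library other than Control replicate 3. Btg2, its closest relative among the 10 genes, had -0.14 ± 0.48, and whether the pair differed was not tested. Gadd45g stood at 31.5 CPM ± 12.5 in Control and 55.85 ± 15.4 in KO (0.83 ± 0.31, adjusted p = 0.263), Gadd45b had 0.39 ± 0.34 and Ccng2 -0.32 ± 0.21.

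The BCL2 family, to which Bax belongs, held 0 edgeR QL calls among 13 tested, and at an unadjusted p under 0.05 it had 0 higher and 1 lower. Bmf, a proapoptotic member that senses cytoskeletal stress, stood at 34.9, 14.2, 17.04 and 32.5 CPM in the Control libraries, against 10.1, 14.5, 10.9 and 12.9 CPM in the KO libraries. The groups overlapped through Control replicate 2 (log2 fold change -1.02 ± 0.29, SE, edgeR QL adjusted p = 0.124), and DESeq2 called it lower. Bcl2, the founding survival gene, had -0.32 ± 0.15 (adjusted p = 0.361).

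**Figure D4:**
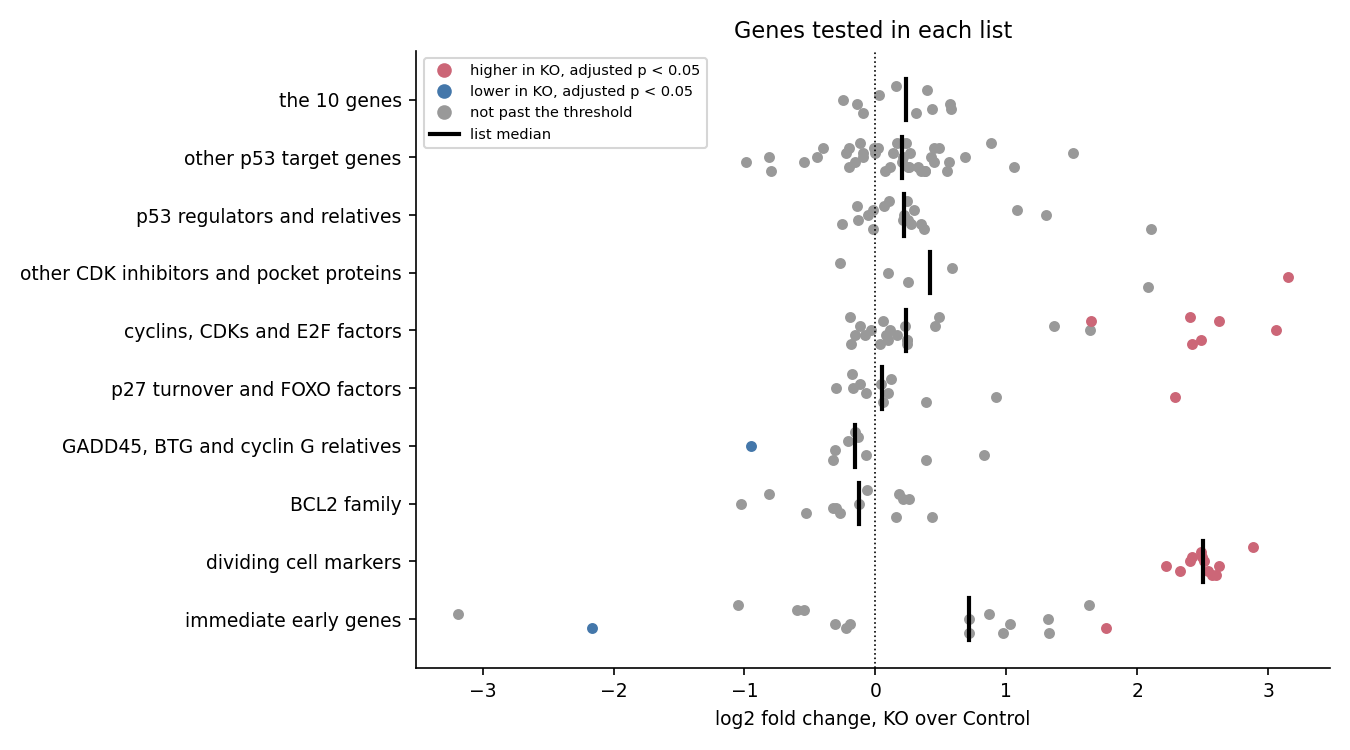
Log2 fold change, KO over Control, of every tested gene in each list (1 point per gene, spread vertically for visibility), coloured where the edgeR QL adjusted p was under 0.05, with the list median as a black bar. The 10 genes lie between -0.25 and 0.58 with 0 called, and the 12 dividing cell markers lie between 2.22 and 2.89 with 12 called.

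Over all 9 lists, 149 of 158 genes other than the 10 were tested, and 17 were called higher and 2 lower. These lists were chosen with results on these data known, so their counts are descriptions. For the 10 genes, the form of the deposited file names (with an index sequence for Control replicate 2 and KO replicate 1, without it for the other 6) could be fitted as a term. The log2 fold changes with that term were 0.31 for Trp53, 0.44 for Mdm2, 0.70 for Cdkn1a, 0.55 for Gadd45a, 0.39 for Cdkn2c and 0.18 for Btg2, and 0 of the 10 were called.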

How the data were processed

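RNA was sequenced from 8 libraries of sorted mouse distal convoluted tubule fragments. The authors deposited whole-number read counts per Ensembl gene, not normalized, 1 file per library. The submitters' processing notes name STAR 2.7.4a, fastp 0.20.0, bcl2fastq 2.20 and the build GRCm38.p6. How reads were counted, on which annotation and with what strand setting is not given in the sources used here, so reads of overlapping genes cannot be told apart. Names and coordinates are from GENCODE vM21 (42347 of 42416 identifiers named; the other 69 held 0.0199% of counts). For 96 symbols with several identifiers, the one with most counts was used.

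All genes were fitted together under R 4.3.3 with edgeR 4.0.16: filterByExpr (minimum count 10), TMM scaling, genotype alone and a two-sided quasi-likelihood F test, with Benjamini-Hochberg adjustment over 14268 genes and a threshold of 0.05. The SE is the log2 fold change, without its sign, over the root of F. Permutation tests (Python 3.11.15, SciPy 1.17.1) used log2(CPM + 1). The script was tested on simulated counts. Alternatives were DESeq2 1.42.0, limma-voom (limma 3.58.1) with quality weights, RLE or upper-quartile factors, library totals, no filter, at least 5 CPM in 4 libraries, mitochondrial genes removed, terms for the file name form or the leading digits of the number in the title, and leaving out each library.

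The 10 genes and all lists were chosen with earlier results of these data known. Named genes were the 10, from each list up to 4 called genes with the smallest p or, where none passed, 2, and the 3 genes nearest in profile to the member with the smallest p. Further genes were named for their role.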

Additional observations from a re-analysis of the deposited data

Results flagged for a closer look

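In 4 of 20 groups of 4 values (10 genes, 2 groups each), 1 library stood apart from the other 3 by more than Dixon's 95% limit. Independent normal values would pass it in about 1 in 20 groups. These groups share the same 8 libraries and CPM need not be normal, so the 4 cannot be set against that rate. Btg2 was 358.5 CPM in Control replicate 2, where the other 3 Control libraries held 84.2 to 111 CPM. Cdkn1a was 90.3 CPM in the same library, against 31.9 to 40.8 CPM. Bax was 52.9 CPM in Control replicate 1, against 27.6 to 31.5 CPM. Ccng1 was 249 CPM in Control replicate 1, against 289 to 297 CPM. All 4 values came from Control replicates 1 and 2. Without the library that stood apart, the log2 fold changes were 0.64 for Btg2, 1.01 for Cdkn1a, 0.15 for Bax and 0.10 for Ccng1, and none passed.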

How the results depend on the processing

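None of the 10 genes was called in any of the 18 alternatives, in 1 of which Cdkn1c could not be tested, and 7 of 10 kept 1 direction throughout. The log2 fold change changed sign for Cdkn1c (-0.11 with the file name term, -0.0044 with limma-voom), for Bax (0.0728 with library totals, 0.14 with limma-voom) and for Btg2 (0.18 with the file name term, 0.16 with limma-voom). Leaving out single libraries gave -0.55 to 0.94 for Cdkn1c, -0.20 to 0.15 for Bax and -0.35 to 0.64 for Btg2. Called genes over all tested numbered 316, and 749 with DESeq2, 519 with limma-voom, 140 with the filter of 5 CPM, 199 with the file name term, 29 with the title number block and 36 to 388 without single libraries. Of the pathway list genes, 19 were called, and 3 with the filter of 5 CPM (which left fewer genes), 11 with the file name term, 1 with the title number block and 2 to 20 without single libraries. The causes were not tested. The labels give no replicate numbers, so no pairs were formed, and the title number block was the nearest grouping that could be fitted. Control replicate 4 stood alone in that block and so did not count in its comparison of the genotypes. For Cdkn1c, with 387 counts over all libraries, and for Btg2 and Cdkn1a, with their spread, the intervals are too wide to show a difference of 1.5-fold. The upper limits for Trp53, Mdm2, Cdkn2c and Gadd45a (1.57, 1.71, 1.72 and 2.12) also lay beyond 1.5-fold. Gadd45a, at an estimated 1.49-fold, was not called (edgeR QL adjusted p = 0.295). The lack of calls therefore does not show that these genes were unchanged.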
